A study of Saccharomyces cerevisiae with 2 samples.

Results

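The large subunit of the cytosolic ribosome is described here through the deletion strains of its protein genes, measured in pools of haploid Saccharomyces cerevisiae strains with and without overexpression of LCD1. The strains were all those whose gene symbol on the array platform is RPL followed by a digit, which leaves out the mitochondrial MRPL genes. The rule used names alone and no measured value, and it found 70 of 5325 named strains. It was chosen with earlier results of these data known. The gene annotation holds 76 such genes, and the others were not analysed here. All 70 had both of their tags measured on both arrays.

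Per the labels, 5896 heterozygous diploid knockout strains that can be turned into haploids were pooled and given either a control plasmid or a plasmid with LCD1 behind the galactose-inducible GAL1 promoter, each selected by URA3. After sporulation, haploids of both pools grew for 3 days at 30 °C on a selective medium with 2% galactose as the carbon source. Each haploid therefore lacked 1 gene, and both pools carried a URA3 plasmid and grew on galactose. LCD1 (DDC2) is the gene of the protein through which the checkpoint kinase Mec1 is recruited to damaged DNA. Strain tags were amplified from genomic DNA, labelled with Cy5 for the control pool and Cy3 for the LCD1 pool, and hybridised together. This was done on 2 arrays with the same dye orientation, so dye and pool cannot be told apart. The sample titles number the arrays as experiment 1 and experiment 2. Nothing in the labels tells whether separate cultures stood behind the arrays, so the spread between them may be technical. The GAL1 promoter drives LCD1 in all cells that hold the plasmid.

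Values are given as log2 ratios with the LCD1 pool in the numerator, which is the likely direction. No source used here states the dye in the numerator of the deposited ratio. A strain without LCD1 needs the LCD1 plasmid to live, and its deposited ratios were below 1 throughout. They were 0.05 (array 1) and 0.03 (array 2) by its first tag and 0.44 and 0.73 by its second, and all values were turned over for that reason. Were the direction the other way, every strain given as higher would be lower and the reverse. Features of a strain fell into 2 blocks, taken for its pair of tags and called the first and the second tag. The median of every block and array was set to 0, so 0 is the typical strain, and a strain's value on an array is the mean of its 2 tags. A mean ± SD is over the 2 arrays. A lower ratio can mean fewer cells of a strain or a poorer reading of its tag, which cannot be told apart in a pool.

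The large subunit catalyses peptide bond formation and holds the tunnel through which the new protein leaves the ribosome. Most of its protein genes in budding yeast are duplicated, as A and B paralogs that encode identical or nearly identical proteins, and a strain without 1 paralog usually lives on the other. Haploids without an essential single-copy gene, or without the paralog that cannot be replaced, do not grow. Loss of a ribosomal protein gene commonly slows growth, by an amount that differs between paralogs because their expression differs. Each deletion strain thus tests 1 copy, and the pairs allow the A and B copies of the same protein to be set side by side on the same array.

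Most large-subunit strains, like most strains of the pools, lay close to 0. The median of the 70 strains was 0.098 (quartiles -0.15 and 0.39), with 41 above 0 and 29 below, and 53 of them (75.7%) lay within 0.5 of 0, against 79.3% of all strains. Over all 5325 strains the median was 0.036 (quartiles -0.20 and 0.29), with 54.1% above 0 against 58.6% of the large-subunit strains. The 53 small-subunit strains had a median of 0.16, with 37 above 0. At least 2-fold lower on both arrays was 1 large-subunit strain, that of RPL17B, where 1.82% of all strains were. At least 2-fold higher on both arrays was 1, that of RPL34B, where 0.695% of all strains were. These counts are 1 in each direction of 70, and without centring they were 1 lower and 2 higher, with RPL24B added. On both tags of both arrays 0 strains were 2-fold lower (0.377% of all strains) and 1, RPL34B, was 2-fold higher (0.151%).

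By limma, fitted on all strains with Benjamini-Hochberg adjustment, 0 large-subunit strains passed an adjusted p of 0.05 (0% of all strains, lowest adjusted p among the 70 strains 0.113). Without adjustment, 5 were lower and 11 higher at a limma p under 0.05, where 10.8% of all strains were lower and 11.6% higher. All 4 tag values lay above 0 in 8 strains (11.4%, against 16.7% of all strains) and below 0 in 13 (18.6%, against 16.4%). A limma fit of the 4 tag values with the array as a block called 8 large-subunit strains, where it called 9.1% of all strains. They were those of RPL34B, RPL24B, RPL28, RPL21A and RPL19A on the higher side and of RPL17B, RPL38 and RPL36A on the lower. That fit estimated a correlation of -0.36 between tags of an array, which narrows its errors, and it counts 4 values where there are 2 arrays, so its p-values are too small.

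**Figure D1:**
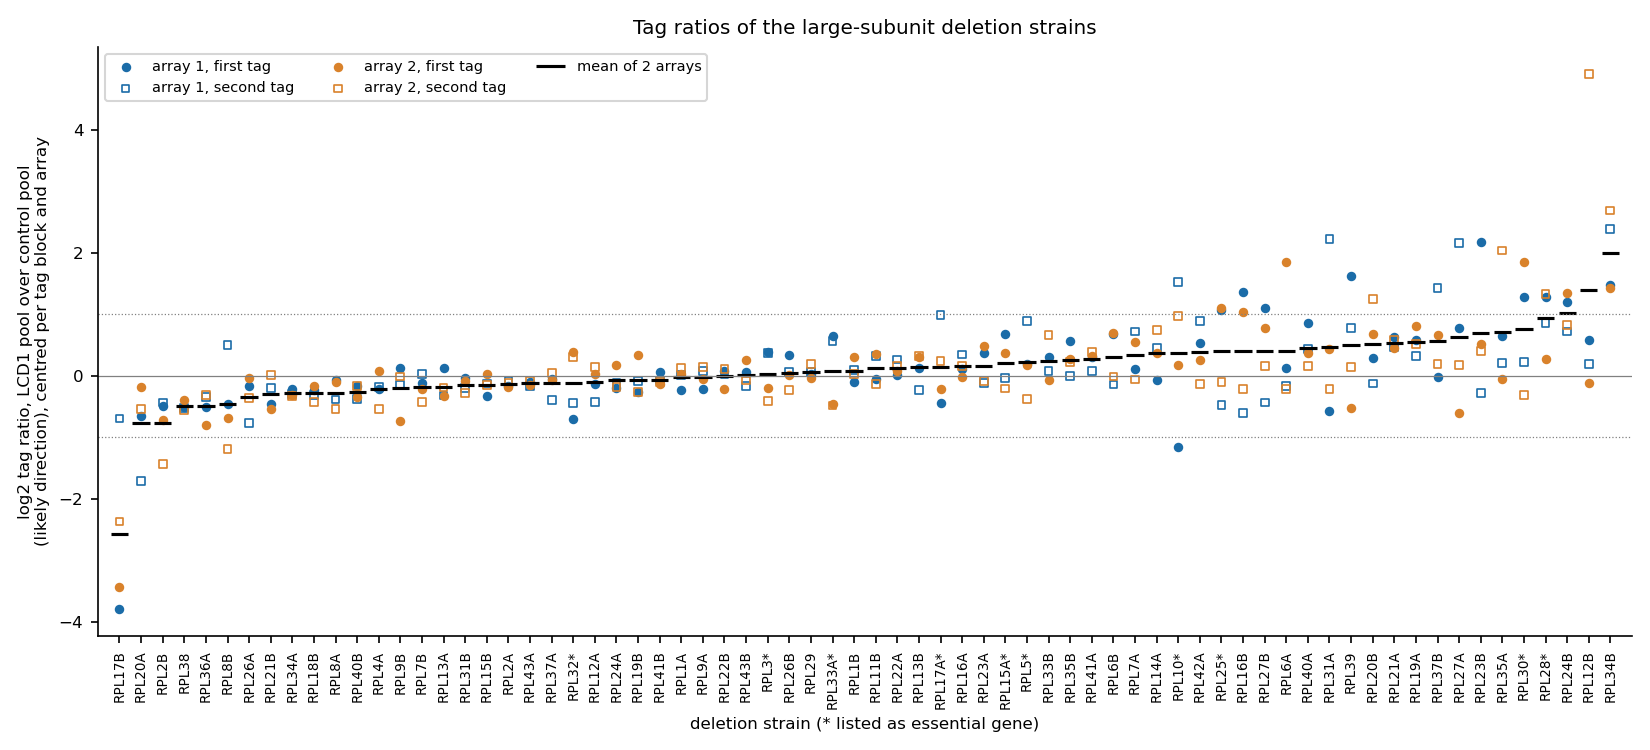
Log2 tag ratio (y axis, LCD1 pool over control pool in the likely direction) of the 70 large-subunit deletion strains (x axis, ordered by mean). Filled circles are first tags and open squares second tags, blue for array 1 and orange for array 2, black bars are means of the 2 arrays, and dotted lines mark 2-fold. RPL17B lies lowest at a mean of -2.58 and RPL34B highest at 1.99, and a single tag value of 4.91 on array 2 carries the mean of RPL12B.

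The protein exit tunnel is lined by Rpl4, Rpl17 and Rpl39, and the strain without RPL17B (YJL177W) had the lowest value of all large-subunit strains. On array 1 its first and second tags read -3.80 and -0.70, and on array 2 -3.44 and -2.37. All 4 values lay below 0, and the second tag on array 1 was the one within 2-fold of the typical strain. The mean was -2.58 ± 0.47 (SD, n = 2), rank 11 from the bottom of 5325 strains, and limma's adjusted p was 0.113. The next lowest large-subunit strain stood at -0.77, so RPL17B was alone at this level among the 70.

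The other copy, RPL17A (YKL180W), is an essential gene, and its tags behaved differently. They read -0.44 and 0.98 on array 1 and -0.21 and 0.24 on array 2, with the first tag below 0 and the second above 0 on both arrays. Its mean was 0.14 ± 0.18. The A strain was higher than the B strain by 2.52 on array 1 and 2.92 on array 2, 2.72 ± 0.29 on average, which was the widest difference of the 27 large-subunit pairs. Both strains of this pair rest on 1 spot per tag. Haploids without RPL17A should grow in neither pool, so its reading is a tag ratio and no measure of growth, and the difference is not one between 2 growing strains.

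RPL4A, which encodes the other large tunnel protein, stood at -0.22 ± 0.023, and its paralog RPL4B was not analysed here. The strain without RPL39, the small tunnel protein of a non-essential single-copy gene, read 1.62 and 0.78 for the 2 tags on array 1 and -0.53 and 0.13 on array 2. It was high on array 1 and near or below 0 on array 2, and its mean of 0.50 ± 0.99 had opposite signs on the arrays. The value of 1.62 includes 1 spot at 4.97, while the other spots of that tag on array 1 lay between 0.49 and 1.80.

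RPL34B (YIL052C) had the highest value of the large-subunit strains and rank 3 from the top of all 5325. The protein, Rpl34, is a component of the large subunit encoded by a duplicated gene. The tags of the strain without RPL34B read 1.47 and 2.38 on array 1 and 1.43 and 2.68 on array 2. All 4 values were above 2-fold, with the second tag the higher one on both arrays. The mean was 1.99 ± 0.091, with a limma adjusted p of 0.113.

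The strain without RPL34A (YER056C-A) lay just below the typical strain instead. Its tags read -0.22 and -0.30 on array 1 and -0.31 and -0.33 on array 2, with a mean of -0.29 ± 0.042. It was spotted 6 times per tag, and the spots of a tag had SDs between 0.040 and 0.089 on the log2 scale. The difference of the A from the B strain was -2.18 on array 1 and -2.37 on array 2 (-2.28 ± 0.13), and on each of the 4 tag values the A strain was the lower one. RPL34B itself rests on 1 spot per tag, with deposited ratios between 0.14 and 0.35.

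RPL24B (YGR148C) and its paralog gave the same kind of contrast at a smaller size. Rpl24 reaches from the large subunit to the small one and forms a bridge between them. The strain without RPL24B read 1.20 and 0.72 on array 1 and 1.35 and 0.82 on array 2. The first tag was above 2-fold and the second below it on both arrays, and the strain values were 0.96 and 1.08. Its mean was 1.02 ± 0.088 with a limma adjusted p of 0.117, just short of 2-fold on array 1. The strain without RPL24A (YGL031C) read -0.20 and -0.11 on array 1 and 0.18 and -0.18 on array 2, around 0 throughout. The A strain differed from the B strain by -1.11 on array 1 and -1.08 on array 2 (-1.10 ± 0.022).

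In the RPL20 pair both strains moved between arrays while their difference did not. Rpl20 is another large-subunit protein with a pair of genes. The strain without RPL20A (YMR242C) read -0.65 and -1.71 on array 1 and -0.19 and -0.54 on array 2, and that without RPL20B (YOR312C) read 0.29 and -0.13 and then 0.67 and 1.24. Both were lower on array 1 than on array 2, with means of -0.77 ± 0.58 and 0.52 ± 0.62. The difference of A and B was -1.26 on array 1 and -1.32 on array 2, a mean of -1.29 ± 0.041 that was steadier between arrays than either strain. The tags were less even, with differences of -0.94 and -1.58 on array 1 and -0.86 and -1.79 on array 2.

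Over the 27 large-subunit pairs with both strains measured, 4 pairs differed at least 2-fold the same way on both arrays (14.8%). In RPL34, RPL20 and RPL24 the B strain was the higher one and in RPL17 the A strain. Among the 26 other A/B pairs of the table, most of them of the small subunit, 3.85% did so, which was 1 pair (RPS10). By limma, fitted on all 53 pairs, 0 pairs passed an adjusted p of 0.05 (0% of all pairs, lowest adjusted p 0.074), and 8 of the 27 against 4 of the 26 had an unadjusted p under 0.05. Neither copy was generally the higher one: the A strain lay lower in 12 pairs and higher in 15, with a median difference of 0.13. All these comparisons include RPL15A, RPL17A and RPL33A, which are listed as essential and whose values are no measure of growth. A strains had a median of 0.13 and B strains of 0.042, and their quartiles were close, at -0.12 and 0.36 for A and -0.17 and 0.40 for B. The SD across strains was 0.78 for B and 0.34 for A, with the B strains RPL17B, RPL34B, RPL12B and RPL24B lying beyond every A strain of these pairs. Across the 27 pairs, which share the arrays, Pearson's r of A with B values was -0.21 and Spearman's rho -0.21.

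**Figure D2:**
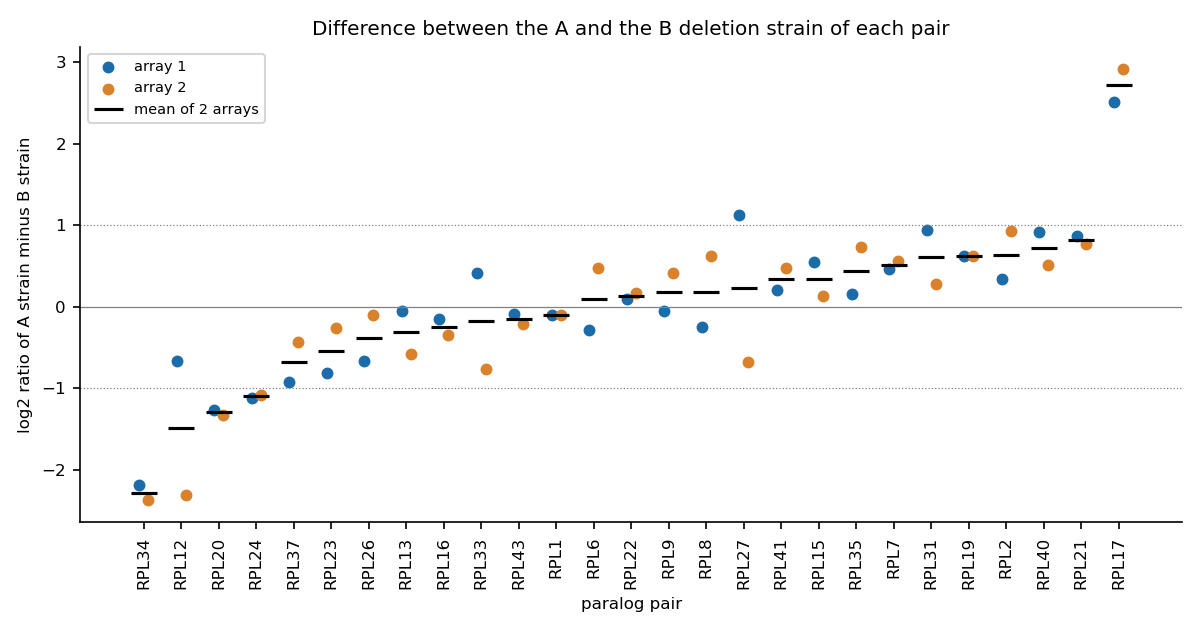
Difference of the log2 tag ratio between the A and the B deletion strain (y axis) for the 27 large-subunit paralog pairs (x axis, ordered by mean). Blue points are array 1, orange points array 2, black bars their mean, and dotted lines mark 2-fold. RPL34, RPL20 and RPL24 lie below the lower line on both arrays and RPL17 above the upper line, whereas RPL12 and RPL27 are past 2-fold on 1 array only.

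Of the other 23 pairs, 18 had the same sign on both arrays at smaller sizes. This makes 22 of the 27 large-subunit pairs, against 19 of the 26 other A/B pairs. RPL19 (Rpl19 touches both the tunnel exit and the small subunit) and RPL21 were among the steadiest between arrays. RPL19A read 0.57 and 0.32 on array 1 and 0.80 and 0.51 on array 2, and RPL19B -0.27 and -0.08 and then 0.34 and -0.27. The A strain was higher on each of the 4 tag values, by 0.62 on both arrays (limma adjusted p 0.129). RPL21A, at 0.53 ± 0.023, was higher than RPL21B, at -0.30 ± 0.045, by 0.87 and 0.78 on the 2 arrays. The small SD of RPL21A does not mean close spots. It has 2 spots per tag, and those of its first tag read 1.16 and 0.082 on array 1.

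The A strain was also higher on all 4 tag values in RPL40 (mean difference 0.72 ± 0.28), whose genes encode ubiquitin fused to the ribosomal protein, in RPL2 (0.63 ± 0.41), in RPL7 (0.51 ± 0.076) and in RPL41 (0.34 ± 0.19). It was lower on all 4 in RPL37 (-0.68 ± 0.35) and RPL26 (-0.38 ± 0.41). In RPL37 the differences by tag were -0.037 and -1.82 on array 1 and -0.73 and -0.14 on array 2. The value of -1.82 rests on 2 spots of RPL37B that read 3.01 and -0.17. RPL37B, at 0.56 ± 0.20, is the direct neighbour of LCD1 in the gene annotation. Together with the 4 pairs past 2-fold and RPL19 and RPL21, 12 of 27 large-subunit pairs differed in 1 direction by all 4 tag values, against 10 of the 26 other pairs.

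In 9 pairs the mean difference was under 0.25 on the log2 scale, against 5 of the 26 other pairs. For RPL1 (Rpl1 forms the movable stalk near the exit site of tRNA) the difference was -0.098 ± 0.0040, for RPL22 0.13 ± 0.059 and for RPL43 -0.14 ± 0.086. In RPL1, RPL22 and RPL43 the arrays had the same sign, but the 4 tag values did not all share it. The furthest of these tag values from 0 was -0.41 (RPL43, first tag, array 2). In the RPL16 pair, at -0.25 ± 0.13, the arrays also had the same sign and the tags did not, at a larger size. By the first tag the A strain was lower by more than 2-fold, at -1.25 and -1.05 on the 2 arrays, and by the second it was higher, at 0.95 and 0.37. In the other 5, RPL6, RPL8, RPL9, RPL27 and RPL33, the arrays had opposite signs. In these 5 and in RPL16 a small mean did not mean a small difference. RPL27 was the extreme case, with a difference of A from B of 1.13 on array 1 and -0.68 on array 2.

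At the base of the stalk that recruits translation factors sits Rpl12, and RPL12B (YDR418W) showed how 1 tag value can carry a strain. Its tags read 0.58 and 0.19 on array 1 and -0.12 and 4.91 on array 2, where the deposited ratio of that value was 0.03, in the range where rounding to hundredths is coarse. The mean of 1.39 ± 1.42 was the second highest of the large-subunit strains, yet on array 1 the strain stood at 0.38. RPL12A (YEL054C) had a mean of -0.097 ± 0.25 with opposite signs on the arrays. Only 9 protein-coding genes lie between RPL12A and CAN1, the locus that carries the haploid selection reporter in strains of this kind, and the part of that linkage in its value was not tested. Rpl5 and Rpl11, which bring the small rRNA of the large subunit into the particle, had strains at 0.22 ± 0.45 (RPL5) and 0.12 ± 0.020 (RPL11B).

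Around the rim of the tunnel exit, where nascent chains meet targeting factors, 9 listed strains had a median of 0.26, with 6 above 0. Past 2-fold on both arrays were 0 of them, where 1.82% of all strains were lower and 0.695% higher. RPL17B and RPL39, given above with the tunnel, are not in this list. RPL35A stood at 0.71 ± 0.40, RPL19A at 0.55 ± 0.15, RPL31A at 0.46 ± 0.51 and RPL26A, the lowest, at -0.34 ± 0.19. In RPL35A and RPL31A 1 tag on 1 array was far above the rest. The second tag of RPL35A read 2.03 on array 2 and 0.20 on array 1, and that of RPL31A 2.22 on array 1 and -0.22 on array 2.

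Of the genes in a single copy, 10 were measured, and 8 of their strains lay above 0 with a median of 0.30. Rpl30 binds its own transcript and limits its own synthesis. Rpl28, long known as Cyh2, is the site of cycloheximide resistance mutations. The strain without RPL28 read 1.27 and 0.86 on array 1 and 0.27 and 1.32 on array 2, all above 0, with a mean of 0.93 ± 0.19. That without RPL30 read 1.27 and 0.22 and then 1.85 and -0.32, with a steady mean of 0.76 ± 0.015 that came from the first tag alone. At the other end, the strain without RPL38, a non-essential gene, read -0.51 and -0.53 on array 1 and -0.40 and -0.56 on array 2, 4 values close together, with a mean of -0.50 ± 0.026. RPL29, also non-essential, stood at 0.060 ± 0.017.

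Both RPL28 and RPL30 are essential genes, and their values are no measure of growth. Of the 10 large-subunit genes listed as essential (RPL3, RPL5, RPL10, RPL15A, RPL17A, RPL25, RPL28, RPL30, RPL32 and RPL33A), 9 had a mean above 0. The sign was not steady: it changed in 6 of the 10 when 1 tag was used alone and in 4 when array 2 was used alone. Their median was 0.21, against 0.051 for the other 60 large-subunit strains, and 0 of them were past 2-fold on both arrays. Arrays agreed less in these strains: the median gap between arrays was 0.33 in the essential group, 0.16 in the others and 0.22 over all strains, and 4 of the 10 had opposite signs on the arrays. Signal over background is unknown for these arrays, so whether the tags of strains that should not grow read above background could not be measured.

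In 3 of the essential strains the tags agreed within each array while the arrays disagreed. RPL33A read 0.65 and 0.56 on array 1 and -0.46 and -0.49 on array 2. RPL3, whose protein reaches the peptidyl transferase centre, read 0.39 and 0.36 and then -0.20 and -0.42. RPL32 went the other way, with -0.71 and -0.45 on array 1 and 0.38 and 0.30 on array 2. In RPL10, whose protein joins the subunit late in the cytoplasm, the tags disagreed instead, with -1.16 and 1.52 on array 1 and 0.18 and 0.97 on array 2. RPL25, which encodes a docking site for the signal recognition particle, read 1.07 and -0.48 and then 1.10 and -0.11, so its tags were apart in the same way on both arrays. The tags of RPL5 read 0.18 and 0.89 and then 0.18 and -0.38, and those of RPL15A 0.67 and -0.04 and then 0.36 and -0.21.

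**Figure D3:**
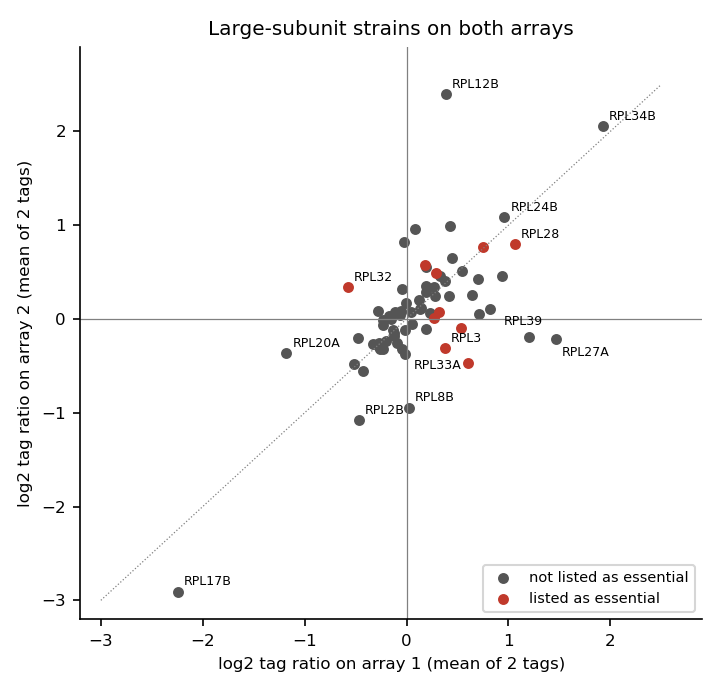
Log2 tag ratio of each of the 70 large-subunit strains on array 1 (x axis) and array 2 (y axis), each the mean of 2 tags, with red points for the genes listed as essential and a dotted line of equal values. RPL17B and RPL34B lie near the line at the 2 ends, RPL12B, RPL39 and RPL27A lie far from it, and RPL3, RPL32 and RPL33A have opposite signs on the arrays.

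The 2 arrays gave a Pearson's r of 0.648 and a Spearman's rho of 0.576 across the 70 strains, against 0.547 and 0.539 over all strains. Strains of a pool share its arrays and are not replicates. Without RPL17B and RPL34B r was 0.407 and rho 0.538 across 68 strains, so part of the pooled r rests on those strains. On 53 of the 70 strains (75.7%, against 71.7% of all strains) the arrays had the same sign, 31 above 0 and 22 below. More than 2-fold apart between arrays were 4 strains (5.71%, against 6.72% of all strains), those of RPL12B, RPL27A, RPL33A and RPL39. RPL27A read 0.78 and 2.15 on array 1 and -0.61 and 0.17 on array 2.

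Between the tags of a strain r was 0.237 on array 1 and 0.374 on array 2 over the 70 strains, against 0.087 and 0.137 over all strains. Between the arrays r was 0.668 for the first tag and 0.342 for the second, against 0.661 and 0.296 over all strains. By r the first tag thus repeated better from array to array than the tags of an array matched, and the second did not on array 2. Spearman's rho between arrays was 0.458 for the first tag and 0.410 for the second, against 0.578 and 0.439 over all strains. Between tags rho was 0.311 on array 1 and 0.393 on array 2, so by rho the second tag was not below it. In 4 strains the tags were at least 2-fold apart the same way on both arrays (5.71%, against 7.87% of all strains). In RPL16B, RPL25 and RPL30 the first tag was the higher one, and in RPL17B the second. A difference of 4-fold on both arrays occurred in 0 of them (1.85% of all strains). For RPL16B the tags read 1.37 and -0.60 on array 1 and 1.03 and -0.21 on array 2, which averaged to a steady 0.39 ± 0.019 that neither tag showed. By limma on the tag differences of all strains, 0 large-subunit strains passed an adjusted p of 0.05 (0% of all strains, lowest adjusted p 0.234), and 7 had an unadjusted p under 0.05, where 14.9% of all strains did.

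With the first tag alone, 5 strains were at least 2-fold higher on both arrays (RPL16B, RPL24B, RPL25, RPL30 and RPL34B) and 1 lower (RPL17B). With the second tag alone, 1 was higher (RPL34B) and 0 were lower, and the median of the 70 strains turned to -0.059. RPL34B was thus the 1 strain past 2-fold by either tag. The RPL17 and RPL34 pairs differed 2-fold by either tag, while RPL24 and RPL16 did so by the first tag and RPL20 by the second.

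Several spots of a strain in 1 tag block gave their scatter within an array, although whether such spots carry the same tag is not given in the sources used here. Most large-subunit strains (59) had 1 spot per tag, 5 had 2 and 6 had 6 or 7. In RPL34A, RPL19A, RPL19B, RPL1A and RPL1B the SD between spots of a tag lay between 0.040 and 0.19, where the median over all 793 strains with at least 5 spots was 0.126 (percentiles 10 and 90 at 0.045 and 0.47). RPL34A was among the tightest, with its highest spot SD at percentile 2.27 of these strains, and RPL19A stood at percentile 12.6. Spot scatter leaves out the variation between arrays: the first tag of RPL19B read -0.27 on array 1 and 0.34 on array 2, further apart than its spot SDs of 0.14 and 0.19. In RPL39 the spots scattered far more, with SDs of 1.71 and 0.93 on array 1 and 0.62 and 0.37 on array 2. Its highest spot SD was above that of nearly all other strains, at percentile 99.4. Spots of its first tag ran from 0.49 to 4.97 on array 1 and from -1.14 to 0.58 on array 2. The spot at 4.97 had a deposited ratio of 0.03, in the range where rounding to hundredths is coarse. 

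**Figure D4:**
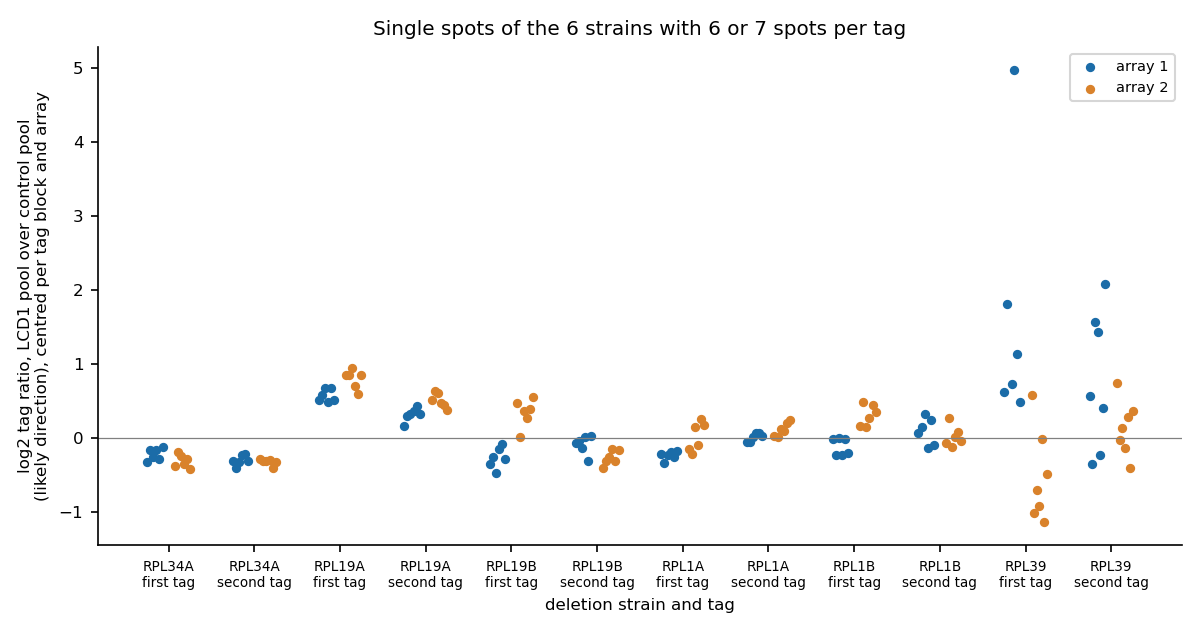
Log2 tag ratio of single spots (y axis) for the 6 large-subunit strains with 6 or 7 spots per tag (x axis, by strain and tag), blue for array 1 and orange for array 2. Within a tag and array, spots of RPL34A, RPL19A, RPL19B, RPL1A and RPL1B have SDs of at most 0.19 and those of RPL39 scatter, up to 4.97.

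Strains with 2 spots per tag were less even. On array 1 the spots of the first tag of RPL16B read 2.65 and 0.082 and those of the second tag of RPL37B 3.01 and -0.17, while on array 2 they read 1.03 and 1.03, and 0.34 and 0.032. In both strains 1 spot on array 1 stood far from its partner. RPL21A, RPL22B and RPL41B also had 2 spots per tag, and in some tags these differed as well. The first-tag spots of RPL21A read 1.16 and 0.082 on array 1, and 0.095 and 0.80 on array 2. On array 1 the first-tag spots of RPL22B read 0.37 and -0.21, and on array 2 the second-tag spots of RPL41B read -0.60 and 0.38. The strain means of RPL21A, RPL22B and RPL41B, which average over such spots, were 0.53 ± 0.023, -0.0047 ± 0.076 and -0.065 ± 0.075.

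Between these cases lay the bulk of the strains. On the lower side stood RPL2B (-0.77 ± 0.43), RPL36A (-0.49 ± 0.092), RPL8B (-0.46 ± 0.68), RPL18B (-0.29 ± 0.019), RPL8A (-0.28 ± 0.066) and RPL40B (-0.27 ± 0.0092). All 4 tag values were below 0 in 5 of these, and in RPL8B, whose second tag read 0.49 on array 1 and -1.19 on array 2, they were not. On the higher side stood RPL23B (0.70 ± 0.34), RPL40A (0.45 ± 0.27), RPL6A (0.40 ± 0.59), RPL27B (0.40 ± 0.093), RPL42A (0.38 ± 0.46), RPL14A (0.37 ± 0.26), RPL7A (0.33 ± 0.12) and RPL6B (0.30 ± 0.053). RPL40A had all 4 tag values above 0. The first tag of RPL23B read 2.16 on array 1 and 0.51 on array 2, and that of RPL6A 0.13 and 1.85. The remaining strains not named above with a value had means between -0.20 (RPL9B) and 0.27 (RPL41A).

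Of 41 strains of other genes of the large subunit, its making and the control of its genes, 2 were at least 2-fold lower on both arrays, where 1.82% of all strains were, and 0 were higher (0.695%). Of 5 stalk protein strains 0 were past it on both arrays, with a median of 0.022. The essential RPP0 had the lowest value (-1.35 ± 0.57), followed in size by RPP2B (0.61 ± 0.18) and RPP1A (0.24 ± 0.72). Of 29 assembly factor strains, 1 was lower and 0 higher, with a median of 0.055, close to the 0.036 of all strains. The lower one was that of the essential GTPase gene NOG1 (-2.05 ± 0.21), whose first tag read -3.72 and -3.64 and whose second -0.083 and -0.76. JJJ1, a co-chaperone gene for recycling of an export factor, stood at -0.77 ± 0.24 and the essential MAK11 at 0.69 ± 0.63.

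Regulators of ribosomal protein genes had a median of -0.44 over 7 measured strains, with 4 below 0. Past 2-fold was 1 of them, the essential coactivator gene IFH1 (-2.65 ± 0.16), whose first tag read -5.22 and -4.90 and whose second -0.31 and -0.18. The essential RAP1 stood at -0.55 ± 0.72 and HMO1, which encodes a promoter-bound HMG protein, at -0.46 on each array. By limma 0 strains of these 3 lists passed an adjusted p of 0.05. In IFH1 and NOG1, as in RPL17B on array 1, the first tag carried the low value. Haploids without an essential gene, such as IFH1, NOG1, RPP0, MAK11 or RAP1, should grow in neither pool. Their values are therefore no measure of growth.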

How the data were processed

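Per the labels' protocols, tags amplified from genomic DNA of both pools were hybridised to a Hopkins tag array and read with a GenePix scanner. The authors deposited 1 log2 ratio per feature and array. That it is log2 was read from the values, which are whole hundredths within 0.001 on a linear scale. No source used here names the normalization, filters or numerator dye. Arrays 1 and 2 had 20000 and 20032 features with a value, and no intensities, so the 2 arrays limit the precision. Of the features with a value, 1242 had no gene name and were not used.

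Ratios were turned over, spots of a gene averaged within a tag block, blocks centred, and limma 3.58.1 (lmFit, eBayes, two-sided; R 4.3.3) run over all strains, all A/B pairs or all tag differences. The moderated fits had 1 residual degree of freedom. The procedure was tested on simulated data. The 70 strains match the annotation by gene ID, assembly R64. Members, lists and tests were chosen with earlier results of these data known. The essential list comes from general knowledge. Strains given in full were those past 2-fold, pairs past 2-fold, essential genes and, of other lists, the 3 largest. Others named (RPL19, RPL38, RPL39 and strains with scattered tags, for example) were chosen after their values were seen. Strains of 8 open reading frames that overlap large-subunit genes had no named feature and were not analysed here. Alternatives covered centring, tags, scaling (median absolute value), spot averaging, coarse ratios, threshold and leaving out an array.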

Additional observations from a re-analysis of the deposited data

How the results depend on the processing

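The count of 1 lower strain was 1 under most alternatives, 0 with the second tag alone or when both tags had to pass, and 2 on either array alone. The count of 1 higher strain was 2 without centring, 5 with the first tag alone, 4 at a 1.5-fold threshold, and 3 to 4 on a single array. The limma count of 0 became 8 in the fit of 4 tag values and stayed 0 in the others. The median of 0.098 was 0.223 without centring, where the median of all strains was 0.161, and 0.067 with the first tag alone. It turned to -0.059 with the second tag alone, was 0.051 without essential genes, and 0.069 to 0.104 on a single array. The cause of these shifts was not tested. The 4 pairs became 7 at 1.5-fold, 2 at 3-fold, 3 with the second tag alone, and 5 on either array alone. The 4 strains with tags apart became 3 without centring or with the arrays scaled, 9 at 1.5-fold, 0 at 3-fold, and 9 to 12 on a single array. The sign changed in 9 of the 10 essential strains under at least 1 alternative. With the first tag alone RPL17A went from 0.14 to -0.33 and RPL10 from 0.38 to -0.49, and with the second RPL3, RPL15A, RPL25 and RPL30 stood below 0. On array 2 alone RPL3, RPL5 and RPL33A stood below 0 and RPL32 went from -0.12 to 0.34, and RPL32 also changed sign without centring. The 2 strains and 4 pairs past 2-fold changed sign with neither tag alone, and the rule that chose them fixes their sign on each array. Scaling of each tag block, added after seeing the data, left these counts within 1.5 times. No paired analysis was possible because there was 1 group, in which both pools share each array. Without intensities, strains near background could not be set apart.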
